A study of Gallus gallus with 6 samples.

Results

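Genes of the transforming growth factor beta (TGF-beta) and activin pathway were followed in chicken bursal cells: the ligand genes TGFB2, TGFB3, INHBA and INHBB, the binder genes LTBP1 and FST, the receptor genes TGFBR1, TGFBR2 and TGFBR3, and the transducer gene SMAD3. They were chosen by name, with earlier results of these data known. Every probe set to which the array annotation gives one of these 10 symbols and no other was taken. That gave 22 of the 38439 probe sets tested, with 3 genes on 1 probe set each and 7 genes on several. The cells were teased from the bursa of Fabricius, where the B cells of birds mature, of 3 week old line 0 chickens. For each culture 2000000 of them were laid on adherent DF-1 cells, a fibroblast line from chicken embryos. The DF-1 monolayer carried Flag-tagged SCA2 (stem cell antigen 2, encoded by LY6E) in one group and the empty vector in the control group. After a night at 37 °C in L-15 and McCoy 5A medium with 4% serum and 5% CO2, the loosely held cells were washed off the adherent monolayer and pelleted. Labelled RNA from 10 µg of total RNA of each harvest went onto an Affymetrix chicken array, with 3 control arrays (control 1 to 3) and 3 SCA2 arrays (SCA2 1 to 3). Both groups thus shared the birds' line and age, the DF-1 monolayer and the medium, and differed in the transgene that the monolayer carried.

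TGF-beta ligands are secreted dimers that leave the cell bound to their own propeptide and to a latent TGF-beta binding protein such as LTBP1, which ties them to the matrix until they are released. Activins are dimers of inhibin beta subunits, INHBA or INHBB, and follistatin (FST) binds them tightly and keeps them from their receptors. Both kinds of ligand bring a type II receptor and a type I receptor together, and the type I receptor phosphorylates SMAD2 and SMAD3, which enter the nucleus with SMAD4. TGF-beta is best known in lymphoid organs as a brake on lymphocyte growth, and in fibroblasts as an inducer of matrix genes.

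All values below are log2 of the deposited intensity of a probe set, and a log2 change is the SCA2 mean minus the control mean. A probe set is named as called, higher or lower, when its p-value in limma, adjusted by the Benjamini-Hochberg method over all 38439 probe sets, lay under 0.05. A log2 intensity of 4.96 serves as a background mark: 95% of 746 probe sets named after sequence records rather than chicken transcript clusters lay below it. Levels of different probe sets are not compared, since each has its own probes.

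Of the 22 probe sets, 16 were called, 9 higher and 7 lower with SCA2. Over the whole array 35.3% of probe sets were called, 18.2% higher and 17.1% lower. The groups did not overlap in 18 of the 22, against 48.9% of all probe sets. As the genes were chosen with earlier results of these data known, a share above that of the array cannot be read as a trait of the pathway. On 3 of the 22 both group means lay below the background mark, and of the other 19 probe sets 15 were called. The 35.3% for the whole array includes dim probe sets. With only probe sets whose mean over all arrays lay above the mark tested, 12537 of 23995 on the array were called. Of the 22, 18 were tested in that setting and 14 were called. The TGF-beta ligand TGFB3, its latent binder LTBP1 and the activin subunit INHBB were higher with SCA2. The other TGF-beta ligand of the set, TGFB2, the activin subunit INHBA and the activin binder follistatin were lower. The receptors and SMAD3 moved less or were split between their probe sets. Of the 16 calls, 9 held under each of the 18 other settings that tested them, and these were the 2 probe sets each of TGFB3, INHBA and INHBB and 3 of the 4 called for LTBP1.

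**Figure D1:**
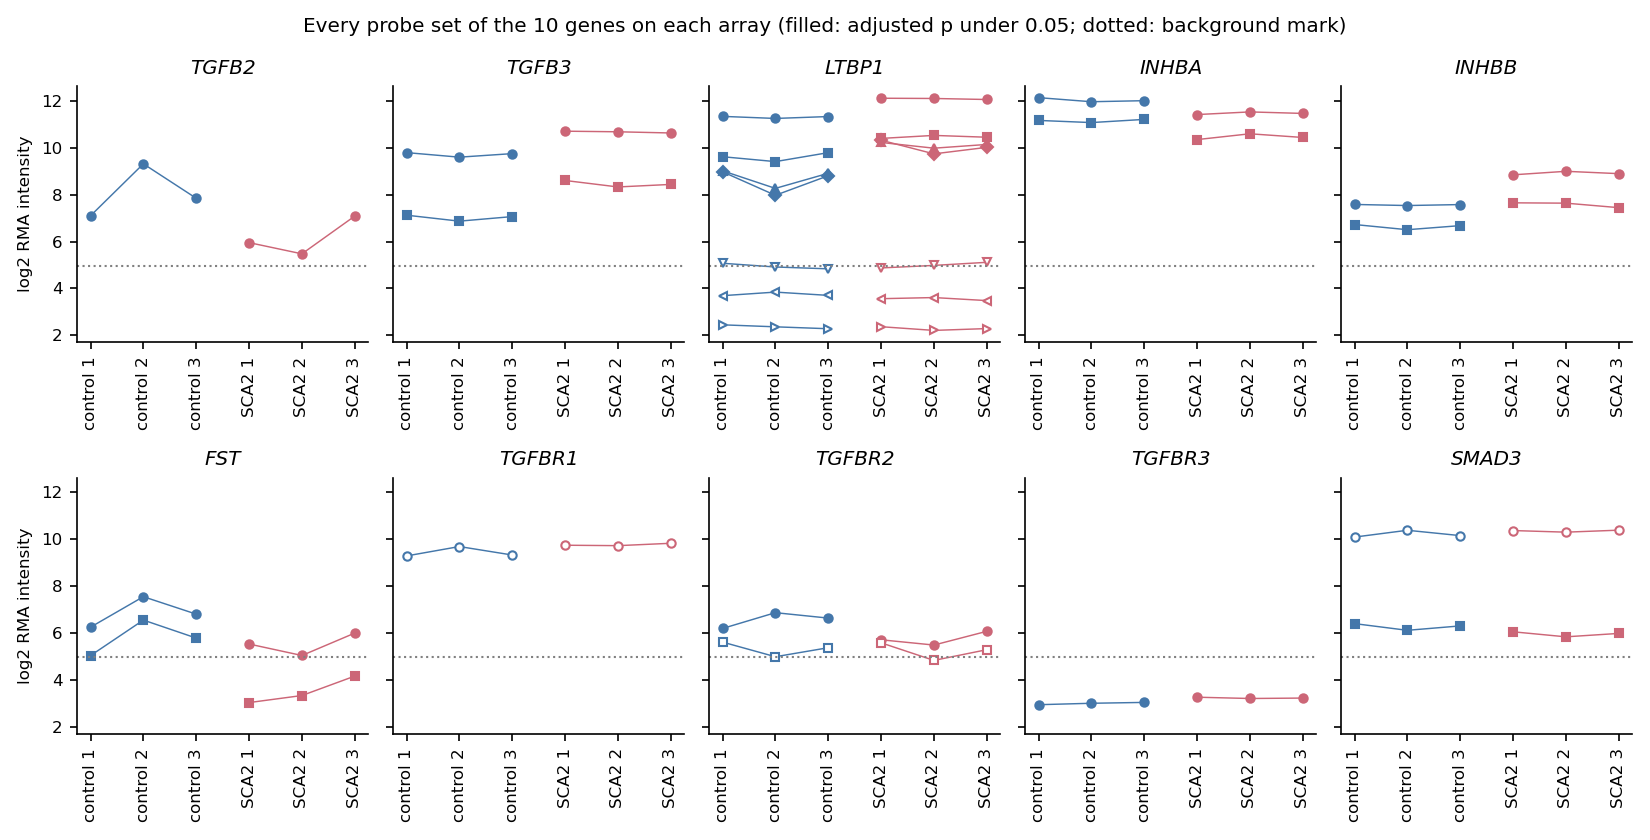
Log2 RMA intensity (y axis) of the 22 probe sets of the 10 genes on each of the 6 arrays (x axis), blue for control and red for SCA2. Filled symbols mark probe sets with an adjusted p under 0.05, lines join the arrays of one probe set within a group and imply no order, and the dotted line is the background mark of 4.96; TGFB3, LTBP1 and INHBB step up between the groups, while TGFB2 and FST step down and peak on control 2 and SCA2 3.

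Probe sets of one gene are numbered from the brightest. TGFB3 rose on both of its probe sets. The first measured 9.79, 9.60 and 9.75 on control 1, 2 and 3 and 10.71, 10.68 and 10.63 on SCA2 1, 2 and 3. The second measured 7.12, 6.87 and 7.06 on the control arrays and 8.60, 8.33 and 8.44 on the SCA2 arrays. On each of them the lowest SCA2 array stood well above the highest control array, by 0.84 on the first and by 1.20 on the second. The log2 changes were 0.96 (SE 0.08, 1.94-fold; adjusted p in limma = 0.000151) and 1.44 (SE 0.11, 2.71-fold; adjusted p = 9.04e-05). The first change was exceeded in size by 8.92% of all probe sets and the second by 3.25%.

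TGFB2 went the other way on the 1 probe set that carries its name. It measured 7.10, 9.31 and 7.85 on control 1, 2 and 3 and 5.95, 5.48 and 7.09 on SCA2 1, 2 and 3. Control 2 and SCA2 3 were the high arrays of their groups, and the groups were separated by only 0.01, between control 1 and SCA2 3. The mean fell from 8.09 ± 1.13 to 6.17 ± 0.83 (SD, n = 3 each), a log2 change of -1.91 (SE 0.60, 95% interval -3.33 to -0.50; adjusted p in limma = 0.0442). The call was lost in limma without control 2 (adjusted p = 0.089), control 3 (0.0849), SCA2 1 (0.121) or SCA2 2 (0.122), within a range of 0.0132 to 0.168 over all settings. With both control 2 and SCA2 3 left out, a setting added after the values were seen, TGFB2 stayed called. As these were its highest arrays in each group, that setting is no independent check of the call.

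The activin subunit genes moved in opposite directions. INHBA, which encodes the beta A subunit of activin A, was lower on both probe sets. The brighter one measured 12.14, 11.96 and 12.01 on the control arrays and 11.42, 11.53 and 11.46 on the SCA2 arrays. The other measured 11.17, 11.07 and 11.21 against 10.35, 10.60 and 10.44. On neither did the groups overlap, and the spread within a group was small. The log2 changes were -0.57 (SE 0.08, 1.48-fold lower; adjusted p in limma = 0.00152) and -0.69 (SE 0.09, 1.61-fold lower; adjusted p = 0.00104).

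INHBB, which encodes the beta B subunit of activin B, was higher on both of its probe sets. The brighter one measured 7.58, 7.54 and 7.58 on the control arrays and 8.84, 8.99 and 8.90 on the SCA2 arrays. The other measured 6.73, 6.50 and 6.68 against 7.65, 7.64 and 7.44. The 3 control arrays lay close together and each SCA2 array was above them. INHBB had the smallest p of the 22 probe sets, with a log2 change of 1.35 (SE 0.07, 2.54-fold; adjusted p in limma = 3.77e-05) on the first and of 0.94 (SE 0.10, 1.92-fold; adjusted p = 0.000338) on the second.

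**Figure D2:**
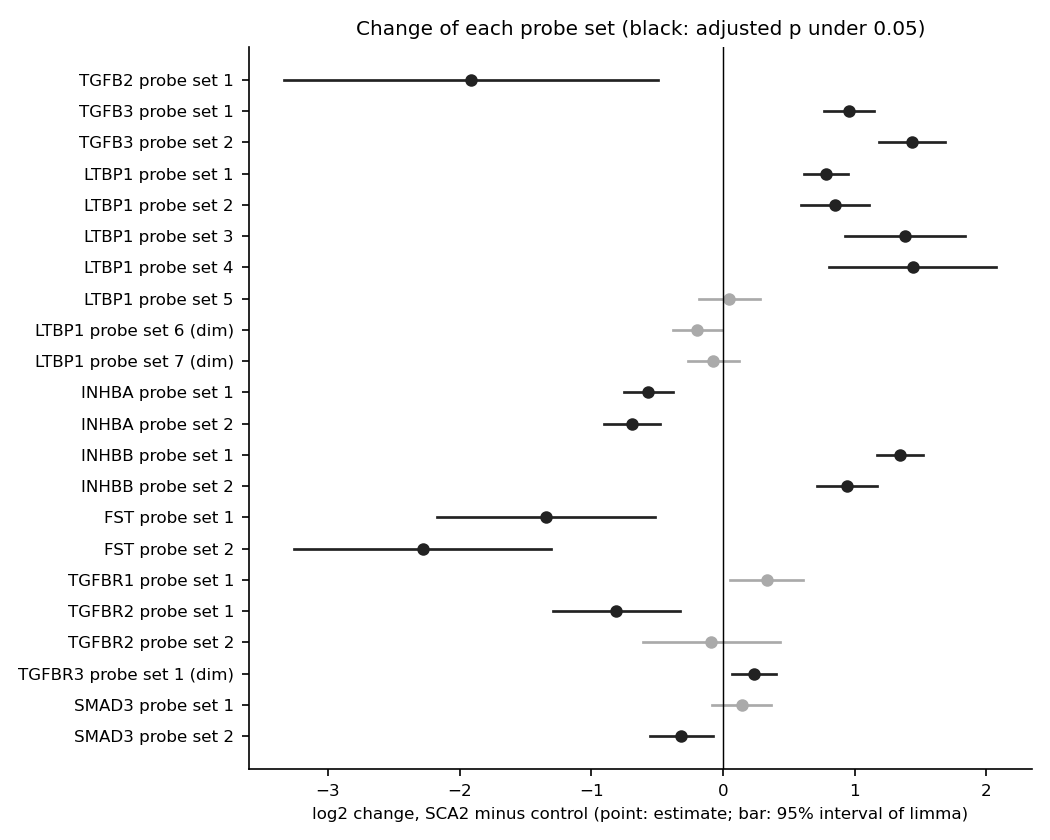
Log2 change, SCA2 minus control (x axis), of each of the 22 probe sets (y axis, brightest first within a gene), with its unadjusted 95% interval from limma. Black marks the 16 probe sets with an adjusted p under 0.05 and grey the 6 without; "dim" marks the 3 with both group means below the background mark, and the intervals of TGFB2 and FST are the widest.

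LTBP1, the matrix anchor of latent TGF-beta, has 7 probe sets, of which 4 were higher and 3 were not called. The brightest measured 11.34, 11.25 and 11.33 on the control arrays and 12.11, 12.10 and 12.06 on the SCA2 arrays, a log2 change of 0.78 (SE 0.07, 1.72-fold; adjusted p in limma = 0.000191). Another measured 9.62, 9.41 and 9.79 against 10.40, 10.53 and 10.45, a change of 0.85 (SE 0.11, adjusted p = 0.000937). On these 2 the rise was under 2-fold, and the groups lay apart by 0.72 and 0.61.

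The other 2 called probe sets of LTBP1 moved further and varied more among the controls. One measured 9.02, 8.27 and 8.91 on the control arrays and 10.23, 9.98 and 10.14 on the SCA2 arrays. The other measured 8.97, 7.97 and 8.81 against 10.32, 9.74 and 10.02. Control 2 was the low control array on both. Their log2 changes were 1.38 (SE 0.19, 2.61-fold; adjusted p in limma = 0.00142) and 1.44 (SE 0.27, 2.72-fold; adjusted p = 0.00543). The 3 probe sets of LTBP1 that were not called lay below the background mark or at it. All values of one lay between 2.21 and 2.45 and those of another between 3.48 and 3.84, below the background mark on each array. The last lay at the mark, between 4.84 and 5.11, with a change of 0.05 (95% interval -0.18 to 0.28).

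Follistatin, the secreted trap of activins, fell on both probe sets. One measured 6.25, 7.55 and 6.81 on control 1, 2 and 3 and 5.53, 5.04 and 6.0 on SCA2 1, 2 and 3. The other measured 5.04, 6.55 and 5.79 against 3.03, 3.33 and 4.16. As with TGFB2, control 2 and SCA2 3 were highest in their groups, and the groups did not overlap. The second probe set was below the background mark on the 3 SCA2 arrays, so that its fall is set against background and only a lower bound of the fold is given. The log2 changes were -1.34 (SE 0.35, 2.54-fold lower; adjusted p in limma = 0.0226) and -2.28 (SE 0.42; adjusted p = 0.0048). With the SCA2 arrays set to the background mark the second was at least 1.77-fold lower, and with a pseudocount of 16 its change was -1.39 and it stayed called. The first probe set lost its call in limma without control 3 (adjusted p = 0.058), SCA2 1 (0.0629) or SCA2 2 (0.0652), within a range of 0.00956 to 0.116 over all settings.

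Among the receptors, TGFBR1, the type I receptor of TGF-beta, was not called. It measured 9.29, 9.69 and 9.33 on the control arrays and 9.75, 9.73 and 9.83 on the SCA2 arrays. The change was 0.33 (SE 0.12, 95% interval 0.05 to 0.61; adjusted p in limma = 0.0657), with control 2 close to the SCA2 arrays. In 5 of the 18 other settings it became a call in limma: without control 2 (adjusted p = 0.00719), without both control 2 and SCA2 3 (0.0358), and with all 6 arrays under array weights (0.016), the variance trend (0.0377) or a filter above the median level (0.0469). The adjusted p ranged from 0.00719 to 0.218 over all settings.

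TGFBR2, the type II receptor that binds TGF-beta first, gave different results on its 2 probe sets. One measured 6.19, 6.87 and 6.64 on the control arrays and 5.71, 5.49 and 6.07 on the SCA2 arrays, a log2 change of -0.81 (SE 0.21; adjusted p in limma = 0.0195). The other measured 5.61, 4.99 and 5.37 against 5.58, 4.83 and 5.29, and its change of -0.09 had a 95% interval of -0.61 to 0.43. The 2 intervals, -1.29 to -0.33 and -0.61 to 0.43, overlap in part, and the difference between the probe sets was not tested. The call was lost in limma without control 2 (adjusted p = 0.0557), control 3 (0.062), SCA2 1 (0.0622) or SCA2 2 (0.0581), within a range of 0.00735 to 0.1 over all settings.

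TGFBR3, also called betaglycan, presents TGF-beta to the type II receptor and helps inhibin bind. Its probe set lay below the background mark on each array, at 2.94, 3.00 and 3.04 on the control arrays and 3.26, 3.21 and 3.23 on the SCA2 arrays. It was called higher with a log2 change of 0.24 (SE 0.07; adjusted p in limma = 0.0363), and leaving out any 1 of the 6 arrays ended the call, with adjusted p-values from 0.059 without control 3 to 0.12 without SCA2 1. Its change was 0.083 with a pseudocount of 16, and with the replicate number as a block the adjusted p in limma was 0.0614, within a range of 0.0143 to 0.169 over all settings.

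SMAD3, the transcription factor that both ligand families activate, gave no call on its brighter probe set and a weak one on the other. Its brighter probe set measured 10.09, 10.38 and 10.15 on the control arrays and 10.37, 10.30 and 10.39 on the SCA2 arrays, with overlapping groups and a change of 0.14 (95% interval -0.08 to 0.37). The other measured 6.40, 6.12 and 6.30 against 6.05, 5.84 and 5.98. It was called lower by a small margin, with a log2 change of -0.32 (SE 0.10; adjusted p in limma = 0.0487). That call was lost in limma without control 1 (adjusted p = 0.119), control 3 (0.118), SCA2 1 (0.0701), SCA2 2 (0.132) or SCA2 3 (0.111), within a range of 0.0214 to 0.132 over all settings.

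The members also differed in how they varied inside the groups. Of the 7 lower probe sets, 4 were highest on control 2 among the controls and on SCA2 3 among the SCA2 arrays. They were those of TGFB2, of FST and one of TGFBR2, while those of INHBA and the called one of SMAD3 lacked this order. Over the array, 22.5% of lower probe sets and 10.7% of all probe sets had this order. Of the 9 higher probe sets, 8 were lowest on control 2 among the controls, against 50.7% of all higher probe sets. These 8 belong to TGFB3, LTBP1 and INHBB, and TGFBR3 was the exception. Among the lower probe sets, both of INHBA and the called one of SMAD3 were lowest on control 2 as well.

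Markers of several cell types moved with the groups on the same arrays. Over all 13009 genes, each by its brightest probe set, 26.2% were higher and 20.8% lower. In an epithelium list 8 of 10 genes measured were lower and 0 higher, and its list mean was 8.55, 9.15 and 8.82 on the control arrays and 7.29, 7.29 and 7.97 on the SCA2 arrays. Of macrophage and dendritic cell genes, 13 of 16 were lower and 0 higher, with means of 8.97, 9.34 and 9.11 against 7.88, 7.79 and 8.23. The B cell list had 12 of 13 genes lower and 0 higher. The labels name bursal cells and do not say which cell types these held. The means of the B cell list were 10.41, 10.46 and 10.44 on the control arrays and 9.04, 8.99 and 9.24 on the SCA2 arrays. In that list 0 genes lay below the mark in both groups. The T and NK cell list had 12 of 14 lower, from 7.33 to 7.40 on the control and from 6.16 to 6.22 on the SCA2 arrays.

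The fibroblast and matrix list had 14 of 20 genes higher and 3 lower. DF-1 is a fibroblast line too, but no array held the monolayer alone, so its expression of these genes was not measured. Over all genes 26.2% were higher and 20.8% lower. The list means were 9.28, 9.42 and 9.36 on the control arrays and 10.12, 10.10 and 10.20 on the SCA2 arrays. Control 2 and SCA2 3 were the high arrays of their groups in 4 of the 5 list means, all but the T and NK cell list, as they were for TGFB2 and FST. Control 2 lay above the control mean by 0.31 in the epithelium list and 0.20 in the macrophage list. In the B cell and fibroblast lists it did so by only 0.02 and 0.07. Single genes with this order numbered 7 of 10 in the epithelium list and 10 of 16 in the macrophage list. They numbered 7 of 13 in the B cell list and 3 of 20 in the fibroblast list. Among these 3 was FBLN1, at 5.32, 8.12 and 6.80 on the control arrays, the widest control spread of its list. The lead of control 2 in the fibroblast list mean rests on that gene. Markers below the background mark in both groups were ESRP1 in the epithelium list, TLR4 in the macrophage list, CD2 and THEMIS in the T cell list and PDGFRA and LOX in the fibroblast list. The part of these markers' cells in the changes of the TGF-beta and activin genes was not tested. In RNA from a whole harvest, fewer cells of a type and less RNA per cell cannot be told apart. Without control 2 and SCA2 3, 15 of the 22 probe sets were called, 9 higher and 6 lower, against 16 with all arrays. In that fit, added after the values were seen, FST changed by -1.24 and -2.23 and TGFB2 by -1.76. The arrays left out were the highest of their groups for TGFB2 and FST. That lowers the spread within groups, so the fit is no independent check of these falls or of the count.

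**Figure D3:**
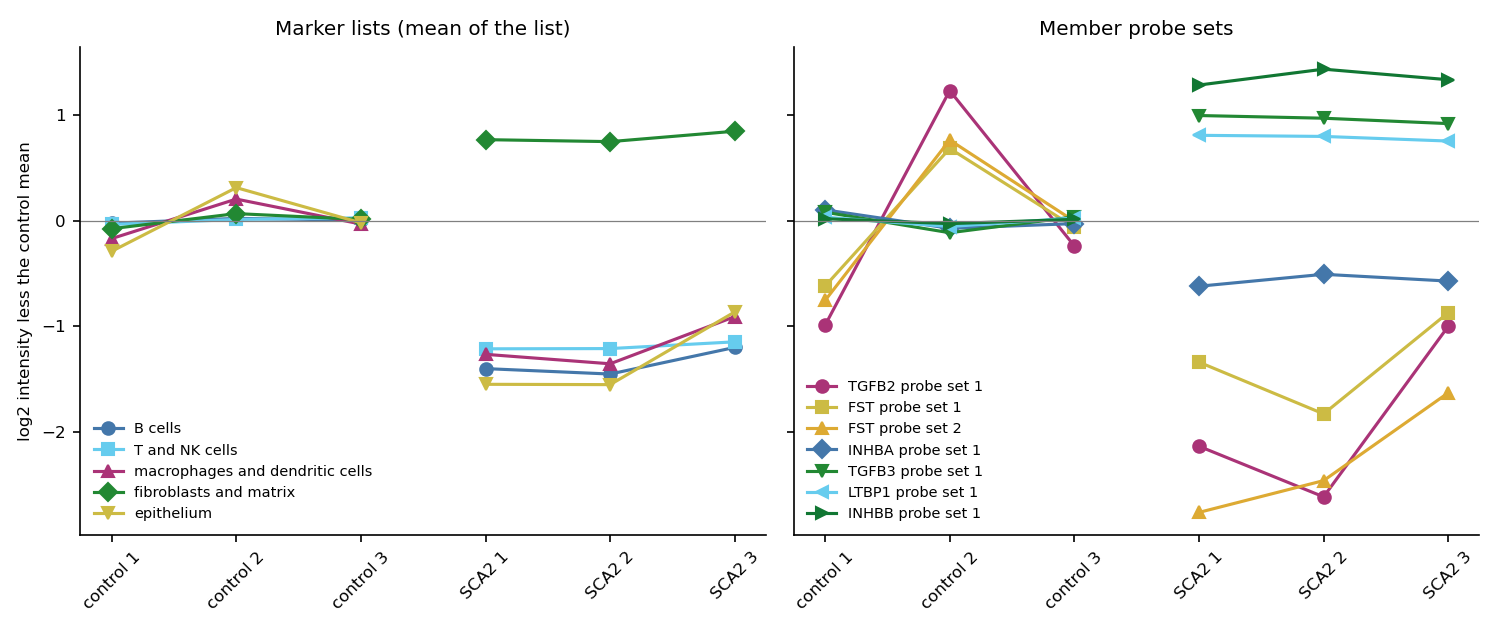
Left, the mean log2 intensity of 5 marker lists on each array less its mean over the controls; right, the same for 7 probe sets of TGFB2, FST, INHBA, TGFB3, LTBP1 and INHBB. Lines join arrays of one group and imply no order. TGFB2 and FST peak on control 2 and SCA2 3, as 4 of the 5 lists do. The lead of control 2 is slight in the B cell and fibroblast lists, and in the fibroblast list it rests on FBLN1. The fibroblast list, TGFB3, LTBP1 and INHBB lie above 0 on the 3 SCA2 arrays.

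The rest of the pathway was read from 6 lists by role, with 1 probe set per gene, that of highest mean. Of 105 listed genes 89 were measured, and 30 of these were higher and 19 lower, or 33.7% and 21.3%. Over all 13009 genes, 26.2% were higher and 20.8% lower. The lists too were chosen with earlier results of these data known. The median change of the 89 was -0.04, against -0.01 over all genes. The count of lower genes was 12 without control 2, 11 without control 3 and 10 without SCA2 1, with 28, 27 and 26 higher.

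Of the 8 remaining ligands measured, 1 was lower (12.5%) and 0 were higher, against 20.8% and 26.2% of all genes. Their median change was -0.09, and both group means of 3 lay below the mark. The lower one was GDF9, a growth factor known from oocytes (-0.74, SE 0.16; adjusted p in limma = 0.0102). It lay below the mark on the SCA2 arrays, changed by -0.47 with the pseudocount, and its other probe set was not called. TGFB1, named here after its values were seen as the closest relative of TGFB2 and TGFB3, measured 9.31, 9.58 and 9.50 on the control arrays and 9.46, 9.56 and 9.54 on the SCA2 arrays. Its groups overlapped and it did not pass the test (adjusted p = 0.686 in limma with Benjamini-Hochberg adjustment).

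Genes of latency and activation were mostly higher where they passed the test, with 6 of 12 higher (50%), 1 lower (8.33%) and a median of 0.46. Over all genes 26.2% were higher and 20.8% lower. PCSK5, a proprotein convertase, changed by 1.66 (SE 0.11), with 3 of its 9 probe sets higher and 0 lower. DCN, which encodes the matrix proteoglycan decorin that binds TGF-beta, measured 11.05 ± 0.02 against 12.13 ± 0.06 (SD, n = 3 each), a change of 1.08 (SE 0.07). LRRC32, which holds latent TGF-beta on the cell surface, changed by 0.73 (SE 0.10), with 2 of its 3 probe sets higher. FBN1, the fibrillin of the microfibrils to which latent complexes attach, changed by 0.52 (SE 0.08), with 1 of its 3 probe sets higher. The lower gene was NRROS, which holds latent TGF-beta on myeloid cells (-0.51, SE 0.08). Adjusted p-values of these 5 lay between 5.61e-05 and 0.00294 in limma with Benjamini-Hochberg adjustment. DCN and FBN1 are also in the fibroblast list above.

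In the list of activin binders and coreceptors, 3 of 11 genes were higher (27.3%) and 2 lower (18.2%), with a median of -0.06. These shares lay near the 26.2% and 20.8% of all genes. FSTL5, a secreted relative of follistatin, had the largest change of the 6 lists: it measured 6.16, 5.61 and 6.05 on the control arrays and 9.0, 8.70 and 8.83 on the SCA2 arrays. The log2 change was 2.91 (SE 0.16; adjusted p in limma = 3.52e-05), against the falls of FST on the same arrays. TMEFF2, a membrane protein with follistatin-like domains, changed by 1.46 (SE 0.11), with 1 of its 3 probe sets higher. TMEFF1, its relative, changed by 1.19 (SE 0.15) with both group means below the background mark, and by 0.56 with the pseudocount. IGSF1, a membrane protein of the immunoglobulin superfamily, changed by -1.24 (SE 0.27; adjusted p in limma = 0.00996).

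Of 5 further type I and type II receptor genes measured, 3 were higher (60%) and 1 lower (20%), against 26.2% and 20.8% of all genes. Their median was 0.62. ACVR2A, a type II receptor of activins, measured 10.35, 10.36 and 10.44 on the control arrays and 10.96, 11.09 and 10.96 on the SCA2 arrays. Its log2 change was 0.62 (SE 0.08; adjusted p in limma = 0.000792), and its other probe set was not called. ACVR2B, the other activin type II receptor, changed by 0.72 (SE 0.21, adjusted p = 0.0334 in limma) and BMPR2, a type II receptor of bone morphogenetic proteins, by 0.63 (SE 0.15, adjusted p = 0.0136). ACVR1B, a type I receptor of activin, changed by -0.26 with both means below the mark, and by -0.15 with the pseudocount. In limma, the call of ACVR2B was lost without control 2 (adjusted p = 0.0649), control 3 (0.0835), SCA2 1 (0.11), SCA2 2 (0.0576) or SCA2 3 (0.0675), within a range of 0.00561 to 0.133 over all settings. That of ACVR1B was lost without any of the same 5 arrays (0.0523, 0.0584, 0.0571, 0.0586 and 0.0878, range 0.00495 to 0.163), and that of BMPR2 without SCA2 3 (0.0539, range 0.00316 to 0.0857).

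Of SMADs and signal regulators 7 of 25 were higher (28%) and 6 lower (24%), with a median of -0.04. These shares lay near the 26.2% and 20.8% of all genes. PMEPA1, which is induced by TGF-beta and dampens its signal, measured 9.41, 9.96 and 9.69 on the control arrays and 11.48, 11.57 and 11.52 on the SCA2 arrays. Its log2 change was 1.84 (SE 0.14; adjusted p in limma = 9.38e-05). SMAD7, the inhibitory SMAD of TGF-beta and activin signalling, measured 8.63, 10.44 and 9.35 against 7.78, 7.79 and 8.68, again with control 2 and SCA2 3 highest. Of its 3 probe sets 2 were called lower, this one with overlapping groups (-1.39, SE 0.45, adjusted p in limma = 0.0495). The call was lost without control 2 (0.0894, with a change of -0.91), control 3 (0.0978), SCA2 1 (0.142) or SCA2 2 (0.127), within a range of 0.0148 to 0.177 over all settings. TGIF2, a corepressor of SMADs, changed by 0.64 (SE 0.08), SMAD6, an inhibitory SMAD best known for bone morphogenetic protein signals, by -0.52 (SE 0.09), and USP15, a deubiquitinase, by -0.46 (SE 0.07).

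Genes known as transcriptional targets of TGF-beta in various cell types were split, with 11 of 28 higher (39.3%), 8 lower (28.6%) and a median of -0.01. Over all genes the shares were 26.2% and 20.8%. SNAI1, a zinc finger repressor, changed by 1.32 (SE 0.11), TAGLN, an actin-binding protein of smooth muscle, by 0.95 (SE 0.09) and LMCD1, a LIM domain protein, by 0.92 (SE 0.07). COL1A2, a chain of type I collagen, changed by 1.96 (SE 0.18), with 2 of its 8 probe sets higher and 1 lower. CDKN1B, an inhibitor of cyclin-dependent kinases, changed by -0.91 (SE 0.09) and POSTN, the matrix protein periostin, by -1.62 (SE 0.23). Adjusted p-values of these 6 lay between 0.000113 and 0.00141 in limma with Benjamini-Hochberg adjustment. COL1A2 and POSTN are also in the fibroblast list.

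**Figure D4:**
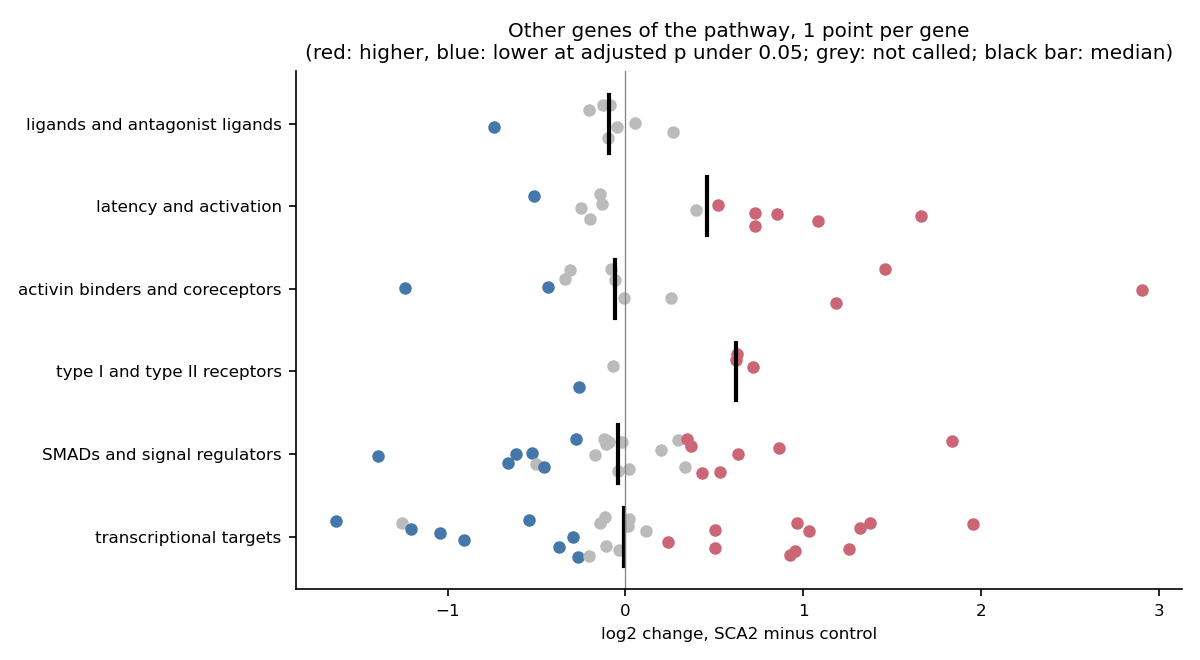
Log2 change, SCA2 minus control (x axis), of the 89 measured genes in 6 lists of the TGF-beta and activin pathway other than the 10 genes followed (y axis, points spread for legibility). Red marks genes higher and blue genes lower at an adjusted p under 0.05, grey those not called, and black bars the list medians, which run from -0.09 for the ligands to 0.62 for the receptors.

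Genes that most resembled the largest changes were picked by the distance of their 6 values, each less its control mean. Nearest to the fourth LTBP1 probe set, the member with the largest rise, were LOC378902, MYOF, a membrane repair protein, CD151, a tetraspanin, SHC4, an adaptor protein, and C12orf29. Their root mean square distances over the 6 arrays were 0.05, 0.08, 0.09, 0.09 and 0.09, against a median of 1.12 over all probe sets. Nearest to the FST probe set with the larger fall were GLRX, a glutaredoxin, BATF3, a transcription factor of dendritic cells, IL1B, an inflammatory cytokine, DIO2, an enzyme that activates thyroid hormone, and CLDN3, a claudin of epithelial tight junctions. Their distances were 0.08, 0.15, 0.16, 0.16 and 0.18, against a median of 1.68. These genes and those nearest to LTBP1 were picked by this distance, so values under the median follow from the choice. This FST probe set lay below the background mark on the SCA2 arrays.

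The 6 arrays were alike in scale, with medians of 51.2 to 53.1 on the linear scale. Array pairs correlated across probe sets with r between 0.99 and 0.997 within the groups and between 0.962 and 0.98 across them. The brightest probe set of LY6E, the gene carried by the SCA2 monolayer, measured 9.23, 10.73 and 10.19 on the control arrays. On the SCA2 arrays it measured 8.54, 8.48 and 9.34. Its groups overlapped, and control 2 and SCA2 3 were highest in their groups. The 3 other probe sets of LY6E lay below the background mark on each array and were not called. The brightest was called lower, with a log2 change of -1.26 and an SE of 0.39 (adjusted p in limma = 0.0415). That call was lost without control 2 (0.104), control 3 (0.11), SCA2 1 (0.123) or SCA2 2 (0.113), within a range of 0.00657 to 0.16 over all settings. Whether any probe set of LY6E detects the construct is not known here.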

How the data were processed

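RNA was measured on 6 Affymetrix chicken arrays. The authors deposited an intensity for each probe set on each array, made with RMA per the submitters' processing notes, with version and settings not given in the sources used here. They ran from 4.28 to 20715 on a linear scale, and log2 was taken. RMA makes the arrays' distributions alike, so a change shared by the whole transcriptome is hidden. Of 38535 probe sets, 96 array controls were left out. Symbols came from the platform annotation. Where a gene identifier was found in RefSeq (GRCg7b), the symbol there was the same, and other symbols were kept unchecked. Of the probe sets tested, 27168 had 1 symbol, 177 several and 11094 none, and only those with 1 were named.

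Each probe set was modelled on the kind of monolayer with limma 3.58.1 (R 4.3.3; lmFit, eBayes), with Benjamini-Hochberg adjustment over 38439 probe sets, no filter on dim ones and a threshold of 0.05. Standard errors and intervals are the moderated ones. Figures used Python 3.11.15 and matplotlib 3.10.9. The fit was also run on simulated data with few changed probe sets and noise independent between arrays. These settings differ from the data here, so that run does not show how well the calls hold in them. The members and lists were chosen with earlier results of these data known. Named were the probe sets of the members, up to 4 called genes of smallest p per list with its largest called rise and fall, and the 5 genes nearest in pattern. The titles call the replicates biological and do not say that each culture had its own birds, so p-values measure the spread between these samples, which may be technical. The number of arrays limits precision. The labels give no batch.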

Additional observations from a re-analysis of the deposited data

How the results depend on the processing

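Other settings were the replicate block, further normalization (quantile, median centring, cyclic loess), filters on dim probe sets, a pseudocount of 16, a variance trend with robust fit, array weights, an unmoderated test, a threshold of 0.01, gene means and leaving out each array. Of the 22 probe sets, between 10 (unmoderated test) and 16 were called. Leaving out 1 array gave 11 to 14, and without control 3, SCA2 1 or SCA2 2 each time 3 were lower in place of 7 and 8 were higher in place of 9. Over the array 13557 probe sets were called, 8381 at a threshold of 0.01, 8441 without control 2 and SCA2 3 (4 arrays, chosen after seeing the data) and 9875 to 13083 without 1 array. Pathway genes called numbered 49, with 33 to 52 over all settings and 36 to 48 without 1 array.

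Of 25 named pathway genes, 19 kept their call under each setting that tested them. The call of TGFB2 was also lost in limma with the pseudocount (Benjamini-Hochberg adjusted p = 0.0659), the variance trend (0.109), array weights (0.0675) and the unmoderated test (0.168). The unmoderated test also ended the calls of FST (0.116 and 0.0535), of the fourth LTBP1 probe set (0.0546), of TGFBR2 (0.1) and of SMAD3 (0.106), and that of SMAD3 was lost too with median centring (0.0669), cyclic loess (0.0877) and the variance trend (0.0648). Signs turned for 3 uncalled results: the fifth LTBP1 probe set, which lay between -0.013 and 0.115 without 1 array, to -0.027 without control 2 and SCA2 3, the second TGFBR2 probe set, between -0.265 and 0.11 without 1 array, and TGFB1 to -0.021 with quantile normalization and -0.059 with cyclic loess, and between -0.025 and 0.114 without 1 array. The causes were not tested.

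Whether replicate numbers pair the arrays is not known. Deviations of same-numbered arrays from their group means correlated with r of 0.41, 0.12 and 0.04. Those of arrays with different numbers ran from -0.45 to 0.33, the highest being control 2 with SCA2 3. With 3 arrays per group these values cannot decide whether the arrays were paired. The replicate block gave 15 calls among the 22 probe sets, 14531 over the array and 50 pathway genes. Arrays give signal over a background, so nothing is shown for genes below the mark. Calls with both group means below it, as for TGFBR3, TMEFF1 and ACVR1B, are still in the counts.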
